A study of Homo sapiens with 30 samples.

Results

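The response described here is the difference between a high and a low dose of herbal extract in HT29, an established line of human colorectal adenocarcinoma cells. It was read from all 18 libraries labelled 500 or 20 µg/mL, out of 30 in the series. Cells had been exposed for 24 h to a 70% ethanol extract of Banhasasim, Bojungikgi, Sayeok or Yijung, which are Korean herbal formulas. At 500 µg/mL there were 2 libraries of Banhasasim, 3 of Bojungikgi, 3 of Sayeok and 1 of Yijung, and at 20 µg/mL there were again 2, 3, 3 and 1. The 9 libraries at 100 µg/mL were used only to place the middle dose and in an alternative fit of 27 libraries. The 3 vehicle libraries were not used, so no value below is relative to untreated cells. All results come from 1 cell line, and Yijung had 1 library per dose, so its own change has no replicate check.

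Cells that meet plant compounds commonly switch on a few well-known programmes. NRF2 is a transcription factor that is released when its keeper KEAP1 is modified by oxidants or electrophiles, and it drives enzymes that make glutathione, reduce quinones and supply NADPH. The aryl hydrocarbon receptor, AhR, is activated by many flat aromatic molecules, including plant flavonoids and indoles, and it induces cytochrome P450 enzymes of family 1. ATF4 answers shortage of amino acids and other stresses by raising amino acid synthesis and import. Colon epithelium keeps all of these ready, since it meets dietary chemicals daily, and it also carries a resting level of interferon-stimulated antiviral genes and of mucins.

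A gene was called when its Benjamini-Hochberg adjusted p was under 0.05 in edgeR's quasi-likelihood test of 500 against 20 µg/mL with extract as a block. It was counted as shared by the 4 extracts when, in addition, every 500 µg/mL library lay on the same side of every 20 µg/mL library of the same extract, in each extract. The words rose and fell are used below for called genes, and shared is used in this sense. For Yijung the second condition is only the order of 1 library against 1. Of 18409 genes tested, 884 rose (4.8%) and 1211 fell (6.58%) at 500 µg/mL. Shared genes numbered 735, or 3.99% of the genes tested and 35.1% of those called, with 274 higher (1.49%) and 461 lower (2.5%). Of the 2095 called genes, 1952 (93.2%) had the same sign of change in all 4 extracts, against 28.3% of all genes tested. The fit that called them favours this, since it pools the extracts. In 136 of the shared higher genes and 267 of the shared lower genes the 9 libraries at 500 µg/mL did not overlap the 9 at 20 µg/mL, whatever the extract, and these were 0.739% and 1.45% of the genes tested. Whether replicates came from separate cultures is not in the labels, so the p-values cover only the spread among these libraries, and that spread may be technical.

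Most of the shared changes were small. The median absolute log2 fold change of called genes was 0.19, and the smallest that was called was 0.07. In the block fit 6 shared higher genes and 8 shared lower genes passed a change of 2-fold, among 27 called genes that did. The median absolute change of the shared higher genes was 0.22 in Banhasasim, 0.16 in Bojungikgi, 0.16 in Sayeok and 0.14 in Yijung. For the shared lower genes it was 0.34 in Banhasasim, 0.25 in Bojungikgi, 0.29 in Sayeok and 0.22 in Yijung. By each extract's own test, 637 genes were higher (3.46%) and 726 lower (3.94%) with Banhasasim, 68 (0.369%) and 194 (1.05%) with Bojungikgi, 152 (0.826%) and 332 (1.8%) with Sayeok, and 4 (0.0217%) and 3 (0.0163%) with Yijung. Here and below, the Yijung test compares 1 library per dose and takes its spread from the other groups, so passing it is no replicated result. Of the shared genes, 35 higher and 77 lower were called separately in all 3 replicated extracts. In contrast, 116 of the 274 shared higher and 127 of the 461 shared lower genes were called in no single extract. For those, shared rests on the pooled call and the order of libraries. Banhasasim had the largest of the 4 changes in 149 of 274 shared higher and in 247 of 461 shared lower genes.

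The depth, as total expected counts in units of 1e6, was 36.274 to 56.697 at 500 µg/mL and 39.038 to 71.243 at 20 µg/mL. Levels of genes are in CPM (counts per 1e6 counts, scaled by TMM factors), but the floor and the marker levels of this paragraph are without these factors. A floor of 3 counts corresponded to 0.0529 to 0.0827 CPM at 500 µg/mL and to 0.0421 to 0.0768 CPM at 20 µg/mL, and it covers counting error only. Libraries of 2 kinds stood apart. The mitochondrial ribosomal RNAs took 12.862% and 9.408% of counts in the Banhasasim 500 µg/mL libraries, against 1.087% to 1.383% in the other libraries at 500 µg/mL and 1.008% to 1.286% at 20 µg/mL. Replicate 2 of Bojungikgi at 500 µg/mL had the lowest share of ribosomal protein transcripts, 3.534%, against 4.758% to 5.128% at 20 µg/mL. Without that replicate 1697 genes rose (9.22%) and 1779 fell (9.67%). Without Banhasasim and without that replicate together, 1408 genes rose (7.71%) and 1455 fell (7.97%), and 704 of the 735 shared genes met both conditions again in the 3 extracts that remained. The libraries left are a part of those that chose these genes, so their order was nearly fixed in advance. All 12 epithelial markers, among them EPCAM, CDH1 and KRT20, were above 1 CPM in the mean, with a summed level of 10314 to 11199 CPM at 500 µg/mL and 10619 to 11208 CPM at 20 µg/mL. Of 10 fibroblast and endothelial markers 2 were above 1 CPM (COL1A1 and PECAM1), the sum was 3.33 to 4.8 CPM at 500 µg/mL and 3.62 to 4.38 CPM at 20 µg/mL, and KDR was at 0 in all 18 libraries. Of 10 leukocyte markers 4 were above 1 CPM, and their sum of 1631 to 2025 CPM at 500 µg/mL and 1708 to 1967 CPM at 20 µg/mL was almost entirely LYZ, the secreted enzyme lysozyme.

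**Figure D1:**
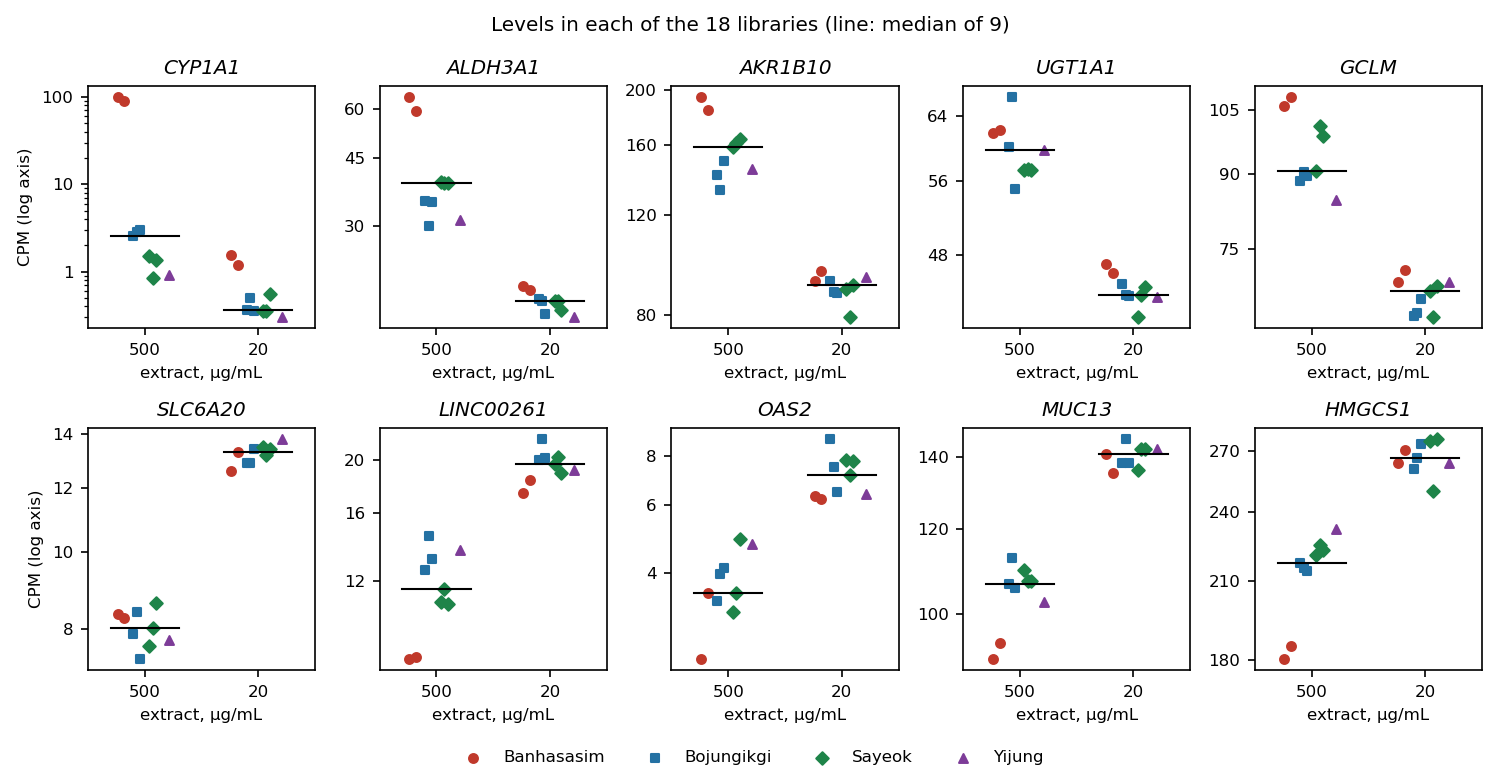
Levels of 10 genes in each of the 18 libraries, in CPM on a log axis, at 500 µg/mL (left) and 20 µg/mL (right). Each point is a library, coloured by extract, and the line is the median of 9. The upper row holds genes that were higher at 500 µg/mL and the lower row genes that were lower; in CYP1A1 alone of the 10 the doses overlap across extracts, with 0.848 CPM as the lowest value at 500 µg/mL and 1.57 CPM as the highest at 20 µg/mL.

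Genes of foreign-compound metabolism led the shared higher genes. Those named are the 15 whose smallest change over the 4 extracts was largest, among genes of at least 5 CPM, and in 13 of them the 9 libraries at 500 µg/mL all lay above the 9 at 20 µg/mL. CYP1A1 (ENSG00000140465, chromosome 15, 74719542 to 74725610, minus strand), the cytochrome P450 that is the classic AhR target, had 0.848 CPM as its lowest, 2.53 as its median and 99.5 as its highest level at 500 µg/mL, against 0.302, 0.361 and 1.57 CPM at 20 µg/mL. Its highest levels at both doses were those of Banhasasim, and the doses overlapped across extracts but not within any extract. The change of CYP1A1 was 4.46 ± 0.56 on the log2 scale in the block fit (SE, adjusted p = 0.000146). By extract it was 6.11 ± 0.16 in Banhasasim, 2.74 ± 0.20 in Bojungikgi, 1.55 ± 0.25 in Sayeok and 1.59 ± 0.48 in Yijung, where it did not pass the test (adjusted p = 0.827). These sizes differed between the extracts (adjusted p of the interaction = 3.07e-07).

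ALDH3A1 (ENSG00000108602, chromosome 17, 19737984 to 19748943, minus strand), an aldehyde dehydrogenase that is a target of AhR and NRF2, rose in all 4 extracts by each extract's own test. It had 30, 38.6 and 64.6 CPM as lowest, median and highest level at 500 µg/mL, against 17.4, 19.1 and 21.0 CPM at 20 µg/mL, with no overlap. Its log2 change was 1.07 ± 0.08 (SE, adjusted p = 2.81e-07), with 1.58 in Banhasasim, 0.82 in Bojungikgi, 1.04 in Sayeok and 0.84 in Yijung. CYP1B1, the related P450 that also answers AhR, was shared but uneven, with 61.3, 89.0 and 369.9 CPM at 500 µg/mL against 55.5, 58.1 and 101.4 CPM at 20 µg/mL. Its log2 change was 1.85 ± 0.05 in Banhasasim and 0.63 ± 0.04 in Bojungikgi, while Sayeok (0.14 ± 0.04) and Yijung (0.15 ± 0.08) did not pass their own tests. The block-fit call of CYP1B1 (0.69 ± 0.19, adjusted p = 0.0281) ended without either Banhasasim library at 20 µg/mL, with a log2 change of 0.57 in both cases and adjusted p-values of 0.0583 and 0.0531. TIPARP, an ADP-ribosylating enzyme that dampens AhR, had 94.9, 103.6 and 203.4 CPM at 500 µg/mL against 81.5, 85.1 and 115.7 CPM at 20 µg/mL, a log2 change of 0.39 ± 0.06 (SE, adjusted p = 0.000323). Its sizes differed between extracts (adjusted p of the interaction = 0.00173), with 0.79 in Banhasasim, 0.34 in Bojungikgi, 0.26 in Sayeok and 0.13 in Yijung. Of 9 measured AhR targets 7 rose, 6 of them shared, and none fell, where 4.8% of all genes rose and 1.49% were shared higher. The median log2 change was 0.44, against -0.00 over all genes tested. Not every member moved, since AHRR, the AhR repressor, stood at 4.16 to 5.44 CPM at 500 µg/mL and 3.73 to 5.08 CPM at 20 µg/mL. Without Banhasasim 7 of 9 rose again, where 3.21% of all genes tested did.

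UGT1A1 and UGT1A6 conjugate bilirubin, phenols and drugs with glucuronic acid. They are alternative first exons of a single locus and share the remaining exons, so the split of reads between them is uncertain. UGT1A6 (chromosome 2, 233691607 to 233773300, plus strand) had 65.9, 69.7 and 79.8 CPM as lowest, median and highest level at 500 µg/mL, against 50.2, 52.4 and 54.8 CPM at 20 µg/mL. UGT1A1 (chromosome 2, 233760248 to 233773299, plus strand) had 55.0, 59.7 and 66.6 CPM at 500 µg/mL, against 42.2, 44.2 and 47.1 CPM at 20 µg/mL. The doses did not overlap in either, and the log2 changes were 0.44 ± 0.03 for UGT1A6 (SE, adjusted p = 2.76e-08) and 0.42 ± 0.03 for UGT1A1 (SE, adjusted p = 1.42e-08). UGT1A1 was the most even of the leading genes, with 0.41 in Banhasasim, 0.44 in Bojungikgi, 0.39 in Sayeok and 0.44 in Yijung. The start region of UGT1A6 is shown because it is the only one of the 21 leading genes with a RefSeq window that holds the AhR core TNGCGTG (either strand, window of 250 bases before to 50 after the start). The stretch below is GRCh38.p14 chr2:233691452-233691571, plus strand, with the core in capitals, 202 bases before the start.
UGT1A6: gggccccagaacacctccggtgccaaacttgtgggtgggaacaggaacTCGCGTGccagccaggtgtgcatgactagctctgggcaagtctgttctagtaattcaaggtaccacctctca
The core was present in 23 of 211 windows of shared higher genes (10.9%), in 15 of 360 of shared lower genes (4.17%) and in 861 of 11827 of all genes tested (7.28%). A match of letters is a description and not a shown binding site.

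Aldo-keto reductases, which reduce aldehydes, ketones and steroids and are NRF2 targets in human cells, supplied 4 of the 15 leading genes. AKR1B10 (chromosome 7, 134527592 to 134541408, plus strand) had 133.2, 158.4 and 194.3 CPM as lowest, median and highest level at 500 µg/mL, against 79.2, 90.2 and 95.7 CPM at 20 µg/mL. It rose by a log2 change of 0.82 ± 0.04 (SE, adjusted p = 6.36e-10), the doses did not overlap, and it was called in each of the 4 extracts, with 1.01 in Banhasasim, 0.67 in Bojungikgi, 0.91 in Sayeok and 0.63 in Yijung. AKR1C2 had 12.3, 21.6 and 25.1 CPM at 500 µg/mL, against 7.25, 8.25 and 8.77 CPM at 20 µg/mL. Its log2 change was 1.20 ± 0.10 (SE, adjusted p = 1.83e-06), larger in Banhasasim (1.5) and Sayeok (1.56) than in Bojungikgi (0.72) and Yijung (0.93), and the sizes differed (adjusted p of the interaction = 0.000421). AKR1C1 rose by 0.75 ± 0.08 and AKR1C3 by 0.73 ± 0.10 in log2. AKR1C1, AKR1C2 and AKR1C3 are near-identical neighbours on chromosome 10, so the share of reads given to each is uncertain. AKR1C3 was the leading gene whose doses overlapped besides CYP1A1, with 56.2 CPM as its lowest level at 500 µg/mL and 57.0 CPM as its highest at 20 µg/mL.

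The glutathione genes moved with them. SLC7A11 (chromosome 4, 138164097 to 138242349, minus strand), which imports the cystine from which glutathione is made, had 199.4, 227.7 and 421.2 CPM at 500 µg/mL, against 147.5, 159.5 and 176.6 CPM at 20 µg/mL. Its log2 change was 0.67 ± 0.08 (SE, adjusted p = 7.83e-05) with 1.20 in Banhasasim, 0.53 in Bojungikgi, 0.54 in Sayeok and 0.43 in Yijung. GCLM and GCLC, the subunits of the enzyme that starts glutathione synthesis, rose by 0.50 ± 0.03 and 0.41 ± 0.03 in log2. GCLM had 84.4, 90.6 and 108.5 CPM at 500 µg/mL, against 63.5, 67.6 and 71.2 CPM at 20 µg/mL, with no overlap. TXNRD1, which recycles thioredoxin, rose by 0.36 ± 0.03 (adjusted p = 2.76e-08), and its lowest level at 500 µg/mL, 424.9 CPM, was above the highest at 20 µg/mL, 375.0 CPM. HMOX1, the haem-degrading oxygenase, had 11, 13.3 and 18.1 CPM at 500 µg/mL, against 8.49, 9.23 and 9.67 CPM at 20 µg/mL, a log2 change of 0.54 ± 0.06. NQO1, the quinone reductase, rose by 0.42 ± 0.05, but replicate 2 of Bojungikgi at 500 µg/mL, with 514.9 CPM, fell inside the range of the 20 µg/mL libraries, 485.5 to 532.0 CPM.

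Enzymes that supply NADPH rose by less. ME1, the cytosolic malic enzyme, had 107.5, 115.2 and 140.3 CPM as lowest, median and highest level at 500 µg/mL, against 95.1, 97.3 and 105.4 CPM at 20 µg/mL, a log2 change of 0.27 ± 0.04, with no overlap. TKT, the transketolase of the pentose phosphate pathway, rose by 0.24 ± 0.03. In all, 25 of 29 measured NRF2 targets rose, 21 of them shared, and none fell, where 4.8% of all genes rose and 1.49% were shared higher. The median log2 change of the list was 0.28, against -0.00 over all genes, with 29, 26, 29 and 28 members of positive sign in Banhasasim, Bojungikgi, Sayeok and Yijung. FTH1, the ferritin heavy chain, is a member that did not pass the test, with 2860 to 4611 CPM at 500 µg/mL and 2834 to 3654 CPM at 20 µg/mL, but was called without Bojungikgi (0.35, adjusted p = 0.00507). Without Banhasasim 21 of 29 rose, where 3.21% of all genes did. Without Banhasasim and replicate 2 of Bojungikgi at 500 µg/mL 27 of 29 rose, where 7.71% of all genes did. The antioxidant element letters TGACNNNGC (either strand) were in 34 of 211 windows of shared higher genes (16.11%), 49 of 360 of shared lower genes (13.61%) and 1768 of 11827 of all genes (14.95%).

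**Figure D2:**
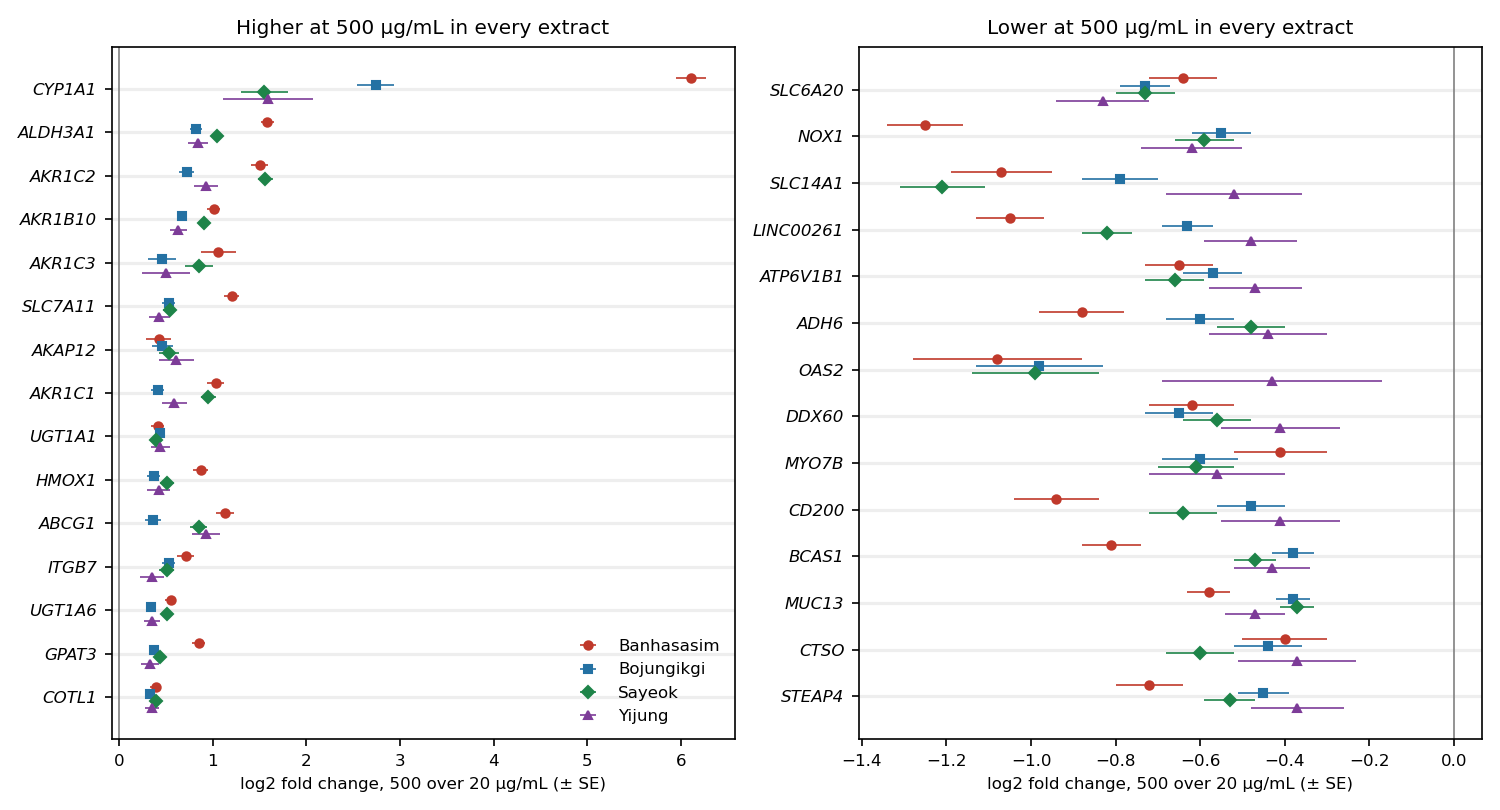
Log2 fold change of 500 over 20 µg/mL in each extract for the 15 leading shared higher genes (left) and 14 leading shared lower genes (right). Points are the 4 extracts and bars are ± SE from the fit of 8 groups; Yijung rests on 1 library per dose and borrows its spread from the other groups. In CYP1A1 the extracts lie from 1.55 to 6.11, while in UGT1A1 they lie from 0.39 to 0.44 and in SLC6A20 from -0.83 to -0.64.

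The remaining leading higher genes were ABCG1, GPAT3, COTL1, ITGB7 and AKAP12. ABCG1, a transporter that exports cholesterol, had 5.75, 7.78 and 10.9 CPM at 500 µg/mL, against 4.09, 4.55 and 5.03 CPM at 20 µg/mL, and passed the test in each of the 4 extracts, with log2 changes of 1.13 in Banhasasim, 0.36 in Bojungikgi, 0.85 in Sayeok and 0.93 in Yijung. GPAT3, an acyltransferase that starts glycerolipid synthesis, rose by 0.49 ± 0.05. COTL1, which binds actin filaments, had 136.5, 141.1 and 149.0 CPM at 500 µg/mL, against 103.5, 109.5 and 119.7 CPM at 20 µg/mL, and its change was even, at 0.39, 0.33, 0.39 and 0.35 in Banhasasim, Bojungikgi, Sayeok and Yijung. ITGB7, an integrin beta subunit, rose by 0.54 ± 0.05. AKAP12, a scaffold for protein kinases A and C, rose by 0.49 ± 0.06, with its largest change in Yijung (0.61 ± 0.19) and its smallest in Banhasasim (0.42 ± 0.13).

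The leading shared lower genes were of several kinds, among them solute carriers, a proton pump subunit, a brush border myosin and antiviral genes. In all 14 named by the same rule the 9 libraries at 500 µg/mL lay below the 9 at 20 µg/mL. In RNA from whole cultures, fewer cells that express a gene and less RNA per cell cannot be told apart. SLC6A20 (ENSG00000163817, chromosome 3, 45755450 to 45796535, minus strand), a sodium-coupled transporter of proline and related imino acids, had 7.35, 8.03 and 8.62 CPM as lowest, median and highest level at 500 µg/mL, against 12.6, 13.3 and 13.8 CPM at 20 µg/mL. It fell by 0.72 ± 0.04 on the log2 scale (SE, adjusted p = 1.97e-10) and was called in each of the 4 extracts, with -0.64 in Banhasasim, -0.73 in Bojungikgi, -0.73 in Sayeok and -0.83 in Yijung. NOX1 (chromosome X, 100843324 to 100874345, minus strand), the superoxide-making NADPH oxidase of colon epithelium, had 8.72, 14.8 and 17.5 CPM at 500 µg/mL, against 20.7, 22.1 and 25.3 CPM at 20 µg/mL. Its change was -1.25 ± 0.09 in Banhasasim, -0.55 ± 0.07 in Bojungikgi, -0.59 ± 0.07 in Sayeok and -0.62 ± 0.12 in Yijung, and the sizes differed (adjusted p of the interaction = 0.00985). SLC14A1, a urea transporter, had 3.78, 4.99 and 6.48 CPM at 500 µg/mL, against 7.44, 9.56 and 10.6 CPM at 20 µg/mL, a log2 change of -0.95 ± 0.07 (SE, adjusted p = 3.18e-08).

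LINC00261 (chromosome 20, 22547671 to 22578642, minus strand), a long non-coding RNA that neighbours FOXA2, fell by 0.76 ± 0.05 (SE, adjusted p = 7.71e-09). It had 8.63, 11.6 and 14.5 CPM at 500 µg/mL, against 17.4, 19.7 and 21.9 CPM at 20 µg/mL, and the strand setting of the counting is not given in the sources used here. Its start region is shown because it holds the antioxidant element letters, here on the opposite strand, although the gene fell. The stretch is GRCh38.p14 chr20:22578754-22578873, minus strand, with the element in capitals, 181 bases before the start.
LINC00261: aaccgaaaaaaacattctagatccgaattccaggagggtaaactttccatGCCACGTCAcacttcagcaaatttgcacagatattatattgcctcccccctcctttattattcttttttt
ATP6V1B1, a subunit of the proton pump, had 13.5, 14.6 and 16.4 CPM at 500 µg/mL, against 20.9, 22.3 and 24.0 CPM at 20 µg/mL, a log2 change of -0.60 ± 0.04. ADH6, an alcohol dehydrogenase, fell by 0.60 ± 0.06, CTSO, a cysteine protease, by 0.47 ± 0.05 and STEAP4, a metal reductase, by 0.52 ± 0.04. CD200, a surface glycoprotein that restrains myeloid cells, had 4.74, 7.12 and 8.05 CPM at 500 µg/mL, against 8.77, 10.7 and 10.8 CPM at 20 µg/mL, a log2 change of -0.62 ± 0.06. MYO7B, a myosin of the brush border, fell by 0.56 ± 0.05, with changes between -0.61 and -0.41 in the 4 extracts.

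Mucin and goblet cell genes were among those that fell. MUC13 (chromosome 3, 124905442 to 124953819, minus strand), a membrane-bound mucin, had 90.8, 106.7 and 112.7 CPM at 500 µg/mL, against 135.2, 140.7 and 145.4 CPM at 20 µg/mL. It fell by 0.43 ± 0.03 (SE, adjusted p = 6.15e-09) and passed the test in each of the 4 extracts. ATOH1, the transcription factor that commits cells to the secretory lineage, had 2.33, 3.59 and 4.22 CPM at 500 µg/mL, against 4.33, 5.07 and 5.93 CPM at 20 µg/mL, a log2 change of -0.52 ± 0.07. AGR2, a disulfide isomerase needed to fold mucins, fell by 0.31 ± 0.05 and REG4, a secreted lectin, by 0.45 ± 0.05, without overlap of the doses in either. BCAS1, a leading shared gene outside the list, fell by 0.51 ± 0.05. Of 18 measured goblet cell and mucin genes 7 fell, 6 of them shared, and none rose, where 6.58% of all genes fell and 2.5% were shared lower; the median log2 change was -0.18. Without replicate 2 of Bojungikgi at 500 µg/mL 9 fell and 1 rose, where 9.67% of all genes fell. The gel-forming MUC5AC did not pass the test, with 100.7 to 164.6 CPM at 500 µg/mL and 100.7 to 132.6 CPM at 20 µg/mL. Markers of absorptive cells went both ways, with 3 of 16 colonocyte genes higher and 5 lower, where 4.8% of all genes rose and 6.58% fell. CEACAM5 and CEACAM6, surface adhesion proteins, rose by 0.42 ± 0.07 and 0.25 ± 0.03, and VIL1, the villin of microvilli, and SLC5A1, the sodium-glucose transporter, fell by 0.24 ± 0.02 and 0.35 ± 0.05. Of the 12 epithelial markers 3 rose, the third being the keratin KRT20 (0.18 ± 0.03), and 1 fell, VIL1.

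Interferon-stimulated genes were lower at 500 µg/mL as a group. Of 25 measured, 20 fell, 16 of them shared, and none rose, where 6.58% of all genes fell and 2.5% were shared lower. The median log2 change was -0.38. By extract the median was -0.35 in Banhasasim, -0.49 in Bojungikgi, -0.32 in Sayeok and -0.26 in Yijung. The count was again 20 of 25 without Banhasasim, where 4.85% of all genes fell. OAS2 (chromosome 12, 112978395 to 113011723, plus strand), which makes the 2-5A signal that activates RNase L, had 2.4, 3.56 and 4.91 CPM as lowest, median and highest level at 500 µg/mL, against 6.21, 7.18 and 8.87 CPM at 20 µg/mL. It fell by 0.94 ± 0.09 (SE, adjusted p = 1.66e-06), with -1.08 in Banhasasim, -0.98 in Bojungikgi, -0.99 in Sayeok and -0.43 ± 0.26 in Yijung, which did not pass its own test. IFIT1, which binds viral RNA, had 3.85, 4.36 and 6.1 CPM at 500 µg/mL, against 6.83, 7.3 and 8.53 CPM at 20 µg/mL, a log2 change of -0.68 ± 0.07. MX1, an antiviral GTPase, fell by 0.67 ± 0.08, IFIH1, a sensor of double-stranded RNA, by 0.37 ± 0.03, and IRF9, a transcription factor that carries the interferon signal to the genome, by 0.48 ± 0.05. ISG15 stood lower in the median, 21.4 CPM at 500 µg/mL against 25.0 CPM at 20 µg/mL, but did not pass the test (adjusted p = 0.0772). Without replicate 2 of Bojungikgi at 500 µg/mL it was called, with a log2 change of -0.19 (adjusted p = 0.00143).

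DDX60, a helicase of the antiviral response that was not on the list, was among the 14 leading lower genes. It had 4.81, 5.26 and 5.59 CPM at 500 µg/mL, against 7.31, 7.73 and 8.53 CPM at 20 µg/mL, a log2 change of -0.59 ± 0.05 (SE, adjusted p = 4.54e-08), and the doses did not overlap. Its start region is shown because it carries 2 copies of the interferon-stimulated response element, searched as GAAA, any 2 bases and GAAA again on either strand. The stretch is GRCh38.p14 chr4:168318771-168318890, minus strand, with the copies in capitals, 88 and 53 bases before the start.
DDX60: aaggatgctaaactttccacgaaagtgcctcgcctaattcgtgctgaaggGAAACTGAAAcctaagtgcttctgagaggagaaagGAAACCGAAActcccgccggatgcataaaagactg
The element was in 25 of 360 windows of shared lower genes (6.94%), 5 of 211 of shared higher genes (2.37%) and 333 of 11827 of all genes (2.82%). Other elements were closer to the level of all genes. The E-box CACGTG, a palindrome, was in 13.27% of shared higher, 10.0% of shared lower and 9.96% of all windows, the sterol element TCACNCCAC in 1.9%, 1.67% and 1.14%, and the C/EBP-ATF element TGATGNAAN in 1.9%, 2.22% and 1.77%.

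Genes of cholesterol synthesis and uptake were lower by small amounts. Of 24 measured, 16 fell, 7 of them shared, and none rose, where 6.58% of all genes fell and 2.5% were shared lower. The median log2 change was -0.13. HMGCS1, which makes the precursor of mevalonate, had 180.3, 217.4 and 232.2 CPM at 500 µg/mL, against 249.9, 266.5 and 276.6 CPM at 20 µg/mL, a log2 change of -0.33 ± 0.04, with no overlap. INSIG1, a sterol-regulated brake on this pathway, fell by 0.25 ± 0.03, and LSS, the cyclase that makes lanosterol, by 0.24 ± 0.03. Without Banhasasim 12 of 24 fell, where 4.85% of all genes did.

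In several other groups the called members lay mostly in 1 direction, all by small changes. Over all genes tested 4.8% rose and 1.49% were shared higher. When replicate 2 of Bojungikgi at 500 µg/mL was left out, 9.22% rose and 583 of 18399 were shared higher. With Banhasasim left out as well, 7.71% rose and 807 of 18258 were shared higher. Of 21 measured genes of hypoxia and glycolysis 11 rose, 7 of them shared, and none fell; PKM, the last kinase of glycolysis, rose by 0.14 ± 0.02 and SLC2A1, the glucose transporter GLUT1, by 0.19 ± 0.03. PFKP, a phosphofructokinase, and HK2, a hexokinase, rose by 0.24 ± 0.03 and 0.23 ± 0.03. Of 14 heat shock genes 6 rose and none fell, with HSPH1 at 0.16 ± 0.03 and HSP90AA1 at 0.19 ± 0.03, and of 18 unfolded protein response genes 5 rose and none fell, with the chaperone HSPA5 at 0.13 ± 0.02. Of 22 genes of G2/M and mitosis 8 rose, 2 of them shared, and of 23 of G1/S and DNA replication 4 rose, 1 of them shared, while none fell in either list. Without replicate 2 of Bojungikgi at 500 µg/mL 15 of 23 genes of G1/S and DNA replication rose, 9 of them shared, and without Banhasasim as well 17 rose, 13 of them shared. The same leave-outs gave 10 and 13 of 22 genes of G2/M and mitosis, 5 and 6 of them shared, and 8 and 8 of 18 unfolded protein response genes. TPX2, which organises the spindle, and MCM3, part of the replicative helicase, rose by 0.11 ± 0.02 and 0.10 ± 0.02. In the mitosis list the median was -0.01 in Banhasasim, 0.08 in Bojungikgi, 0.07 in Sayeok and 0.10 in Yijung. Among 18 MAPK output genes 7 rose and 1 fell, but only PHLDA1 (0.20 ± 0.03) and SPRY2 (-0.21 ± 0.04), which opposes receptor signalling, were shared.

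The remaining lists held from 0 to 3 shared genes, where 3.99% of all genes were shared, 4.8% rose and 6.58% fell. Without Banhasasim 3.21% of all genes rose and 4.85% fell. Without replicate 2 of Bojungikgi at 500 µg/mL 9.22% rose and 9.67% fell, and 784 of 18399 genes were shared lower. Of 15 Wnt and stem cell genes 1 rose, MYC, and 4 fell, 3 of them shared, among them PROM1 (-0.27 ± 0.04) and SP5 (-0.31 ± 0.05); AXIN2 and LGR5 did not pass the test. Of 18 p53 targets none rose and 3 fell, with SESN1, an antioxidant and growth regulator, at -0.36 ± 0.04; without Banhasasim 1 fell, and without replicate 2 of Bojungikgi at 500 µg/mL 2 rose and 3 fell. Of 13 NF-kB and inflammatory genes 3 rose and 1 fell, and of 18 junction genes 4 fell, with CLDN1 (-0.18 ± 0.03) the shared one; without Banhasasim 2 junction genes fell, and without replicate 2 of Bojungikgi at 500 µg/mL 6 fell, 3 of them shared, and 1 rose. Of 7 measured genes of drug metabolism under the receptors PXR and CAR 2 rose, UGT1A1 and CYP2B6, while CYP3A5 stood at 82.7 to 104.6 CPM at 500 µg/mL and 83.5 to 97.8 CPM at 20 µg/mL. CYP2B6 (0.16 ± 0.05, adjusted p = 0.0497) and MYC (0.09 ± 0.03, adjusted p = 0.0476) lay at the threshold and were not shared, and each lost its call in most of the fits that left out a single library, with log2 changes of 0.15 to 0.17 and 0.08 to 0.09. Of 7 osmolyte and NFAT5 targets 2 rose, neither was shared, and without Banhasasim none rose. None of 6 glucose-sensing genes, 13 mitochondrially encoded mRNAs, 2 mitochondrial ribosomal RNAs and 3 measured fibroblast and endothelial markers was called, and of 6 measured leukocyte markers CD4 fell, was not shared and lost its call without Banhasasim (-0.47, adjusted p = 0.127), and the others were not called. TXNIP, on the glucose-sensing list, was near the threshold (-0.40, adjusted p = 0.0541) and was called with DESeq2 (adjusted p = 0.0141), with 27 libraries (adjusted p = 0.00873) and without Banhasasim (-0.17, adjusted p = 0.00152), where it was also shared lower. MT-RNR1, a mitochondrial ribosomal RNA, was called without Banhasasim (0.14, adjusted p = 0.0289). A fit that gave the 4 extracts equal weight called TXNIP (-0.44) and ARRDC4 (-0.26) lower. It also called MT-RNR1 (1.25) and MT-RNR2 (0.84) higher, and MT-CO1 (-0.29) and MT-ND4 (-0.42) lower. Its mean includes the Banhasasim change, given below for TXNIP and the ribosomal RNAs.

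**Figure D3:**
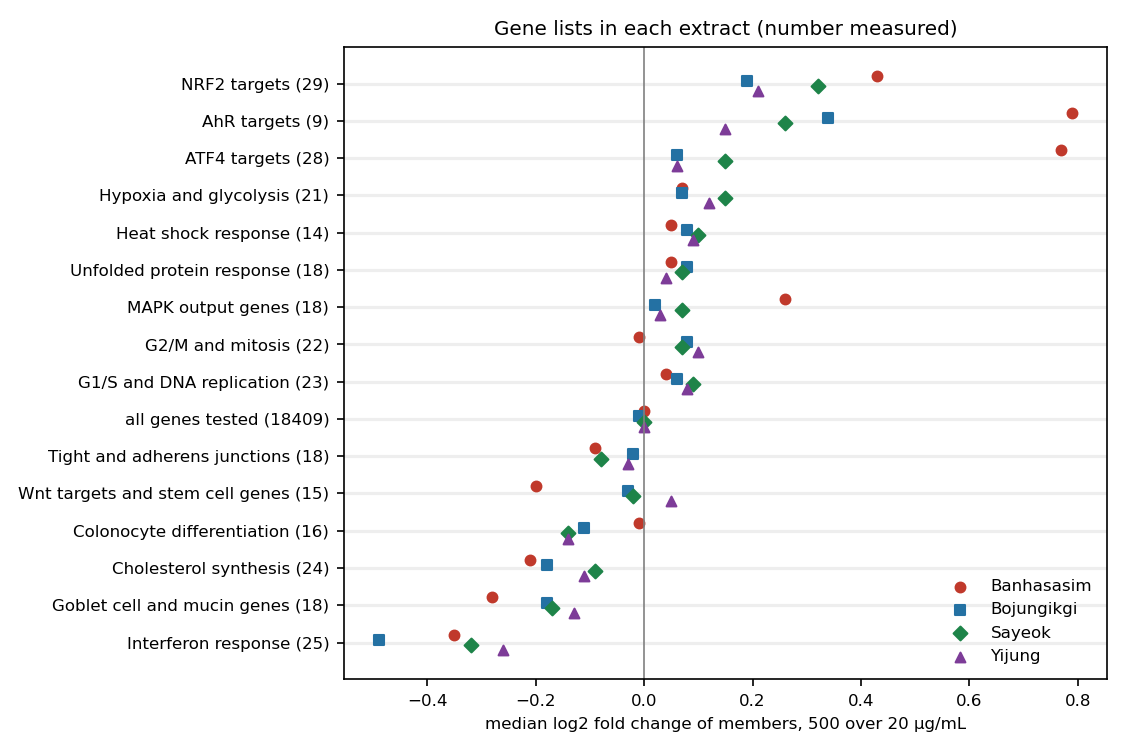
Median log2 fold change of 500 over 20 µg/mL over the measured members of 15 gene lists and over all genes tested, in each extract. Points are medians, and the number of measured members stands in brackets. The NRF2 list lies at 0.43, 0.19, 0.32 and 0.21 and the interferon list at -0.35, -0.49, -0.32 and -0.26 in Banhasasim, Bojungikgi, Sayeok and Yijung, while the ATF4 list lies at 0.77 in Banhasasim and between 0.06 and 0.15 in the others.

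Whether the change itself differed between extracts was tested with an interaction of dose and extract over the 8 groups. It was called for 140 genes (0.76%), and in 129 of them the largest of the 4 changes was that of Banhasasim. Among the shared genes it was called for 19 of 274 higher and 8 of 461 lower. Without Banhasasim 3 genes were called. Of 28 measured ATF4 targets 22 were called in the interaction, of 9 AhR targets 5 were, and of 29 NRF2 targets 3 were. In the block fit 11 of 28 ATF4 targets rose, 5 of them shared, and none fell. Without Banhasasim 9 rose, 5 of them shared by the 3 extracts left, without replicate 2 of Bojungikgi at 500 µg/mL 14 rose, 9 of them shared, and without both 12 rose, all 12 of them shared. Over all genes 4.8% rose in the block fit, and 3.21%, 9.22% and 7.71% in these leave-outs. Shared higher were 274 of 18409 genes, and then 343 of 18270, 583 of 18399 and 807 of 18258. ASNS, asparagine synthetase, had 62.0, 76.8 and 247.3 CPM at 500 µg/mL, against 62.2, 65.9 and 67.1 CPM at 20 µg/mL, and its log2 change was 1.87 ± 0.06 in Banhasasim, 0.08 ± 0.05 in Bojungikgi, 0.26 ± 0.05 in Sayeok and 0.07 ± 0.08 in Yijung (adjusted p of the interaction = 6.72e-11). CHAC1, which degrades glutathione, changed by 2.77 ± 0.11 in Banhasasim and 0.62 ± 0.10 in Sayeok, DDIT4, an inhibitor of mTORC1, by 2.09 ± 0.09 and 0.42 ± 0.07, and in Bojungikgi and Yijung neither passed its test. PSAT1, of serine synthesis, changed by 1.41 ± 0.07 in Banhasasim and by 0.09 to 0.18 in the others, which did not pass singly. In the 3 other extracts together PSAT1 was called with a log2 change of 0.13 (adjusted p = 0.0253) and ASNS with 0.16 (adjusted p = 0.00993). GPT2 and SHMT2, also on the ATF4 list, were shared by order but uneven in size, with 0.69 and 0.60 in Banhasasim and at most 0.14 and 0.16 elsewhere.

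The ribosomal RNAs of the mitochondrion changed most in Banhasasim, and the difference passed the test for both (adjusted p of the interaction = 6.72e-11 and 1.61e-07). MT-RNR1, the small one, changed by 4.57 ± 0.13 in Banhasasim and by 0.14 ± 0.09, 0.14 ± 0.09 and 0.17 ± 0.16 in Bojungikgi, Sayeok and Yijung, and MT-RNR2, the large one, by 3.34 ± 0.16 in Banhasasim and by -0.00 ± 0.12, -0.02 ± 0.12 and 0.05 ± 0.20 in the others. The mitochondrially encoded mRNAs had a median change of -0.94 in Banhasasim against -0.07, 0.03 and -0.02. The shift in Banhasasim stands beside every Banhasasim value above, and its part in them was not tested. With all mitochondrially encoded genes left out, 721 of the 735 shared genes were shared again. The libraries were the same, so the order within extracts could change only through the scaling. TXNIP, which binds thioredoxin and limits glucose uptake, had 21.1 CPM as its lowest level at 500 µg/mL, against 49.6 to 61.5 CPM at 20 µg/mL, with a log2 change of -1.28 ± 0.06 in Banhasasim and -0.18 to -0.15 in the others.

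A few genes changed in opposite directions. The interaction was called together with a called rise in 1 extract and a called fall in another for 7 genes. NR4A1, an immediate early nuclear receptor, changed by 0.43 ± 0.10 in Banhasasim and by -0.40 ± 0.08 in Bojungikgi. SLC43A1, an amino acid transporter, and FYN, a tyrosine kinase, were higher in Banhasasim (0.56 ± 0.06 and 0.39 ± 0.10) and lower in Sayeok (-0.20 ± 0.05 and -0.39 ± 0.08). SLC43A1 also stood lower in Bojungikgi (-0.19 ± 0.05) and Yijung (-0.10 ± 0.09), which did not pass singly. Both genes were called lower without Banhasasim, at -0.18 for SLC43A1 and -0.26 for FYN. UCA1, a long non-coding RNA, was lower in Banhasasim (-0.52 ± 0.09) and higher in Sayeok (0.29 ± 0.07). Its mean level in Bojungikgi was also lower, 19.0 CPM at 500 µg/mL against 23.0 CPM at 20 µg/mL. In Yijung it was 20.7 CPM against 22.1 CPM.

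**Figure D4:**
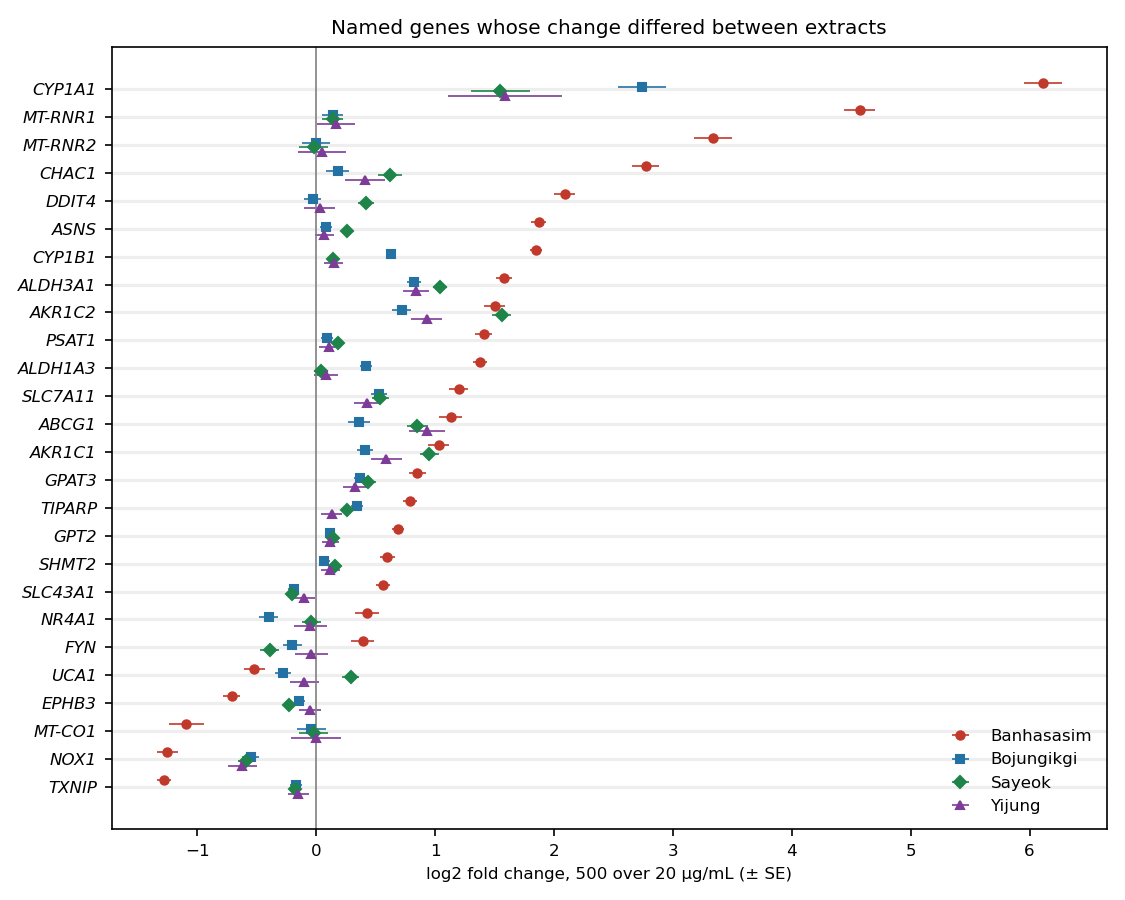
Log2 fold change of 500 over 20 µg/mL in each extract, ± SE, for the named genes whose change differed between extracts (adjusted p of the interaction under 0.05). Genes are ordered by their change in Banhasasim, from CYP1A1 (6.11) at the top to TXNIP (-1.28) at the bottom; in most of them the other 3 extracts lie close together and nearer to 0.

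The same direction could be checked in samples that had not chosen the genes. Genes called in 3 extracts were looked up in the extract left out, where all genes tested have either sign about equally often (47.5% to 52.4%). Genes called higher without Banhasasim had a positive change in Banhasasim in 86.5% of 586 cases, and those called lower a negative one in 85.6% of 886. For Bojungikgi the shares were 74.7% of 993 and 90.2% of 1036, where 5.47% and 5.71% of all genes were called in the other extracts. For Sayeok they were 95.8% of 286 (1.57%) and 98.1% of 470 (2.58%), and for Yijung 93.2% of 692 (3.88%) and 91.1% of 1078 (6.05%). The sample codes in the labels also divide the libraries, with Banhasasim and Yijung in code series 14 and Bojungikgi and Sayeok in code series 15, and no library is in both. Series 14 alone gave 84 genes higher (0.474%) and 134 lower (0.756%), and series 15 alone 344 higher (1.99%) and 697 lower (4.03%). The overlap was 58 higher genes, which is 69% of those in series 14 and 16.9% of those in series 15, and 117 lower genes, which is 87.3% and 16.8%. No gene was called in opposite directions.

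The middle dose was set beside the others. Both 20 and 500 µg/mL were used to choose the shared genes, which favours a level at 100 µg/mL between them, so the shares are a description. Of the 274 shared higher genes the mean level rose in the order 20, 100 and 500 µg/mL in 85.8% with Banhasasim, 83.9% with Bojungikgi, 74.5% with Sayeok and 65.7% with Yijung, and in 37.2% with all 4. Of the 461 shared lower genes it fell in that order in 85.7%, 87.4%, 83.3% and 59.2%, and in 38.4% with all 4. The step between 20 and 100 µg/mL was the smaller of the steps, with a median log2 difference of 0.04 to 0.06 for the higher genes and of 0.03 to 0.09 downward for the lower genes. AKR1B10 in Sayeok averaged 86.4 ± 6.01 CPM at 20 µg/mL, 92.6 ± 4.5 at 100 µg/mL and 162.1 ± 2.51 at 500 µg/mL (SD, n = 3 each). CYP1A1 in Banhasasim averaged 1.39 ± 0.263 CPM at 20 µg/mL, 15.0 ± 0.771 at 100 µg/mL and 94.8 ± 6.95 at 500 µg/mL (SD, n = 2 each). OAS2 in Yijung did not follow the order, with 6.44, 10.7 and 4.79 CPM at 20, 100 and 500 µg/mL in 1 library each. Other named antiviral genes were also highest in the Yijung library at 100 µg/mL. In the same order MX1 had 8.99, 14.1 and 8.24 CPM, IFIT1 7.09, 9.96 and 6.15 CPM, and DDX60 7.35, 9.69 and 5.52 CPM. IRF9 and IFIH1 had this pattern too, while ISG15 did not, with 26.2, 25.8 and 19.8 CPM. These genes were lower at 500 than at 20 µg/mL in Yijung, and the cause of the high middle values was not tested.

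**Figure D5:**
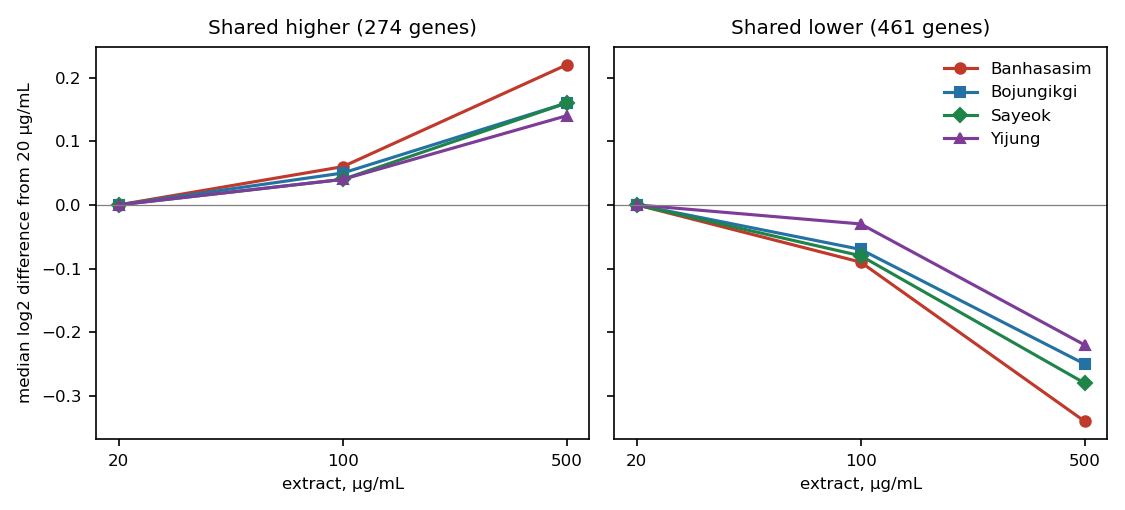
Median log2 difference from 20 µg/mL at 20, 100 and 500 µg/mL for the shared higher genes (left) and the shared lower genes (right), by extract. Points are medians over genes of the log2 ratio of mean levels; the 20 µg/mL point is 0 by construction and the levels at 20 and 500 µg/mL were both used to choose the genes. At 100 µg/mL the medians lie between 0.04 and 0.06 on the left and between -0.09 and -0.03 on the right.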

How the data were processed

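Gene expression in HT29 cells was measured by mRNA sequencing. Per the labels, 1 µg of total RNA (integrity number above 7) went into a directional MGI kit and was sequenced in pairs of 100 bp. What the authors deposited is a table of expected counts. Per the submitters' processing notes they were estimated with RSEM 1.3.3 after STAR 2.7.3a, and the notes also name Trim Galore 0.6.5, FastQC 0.11.9 and the build GRCh38 (hg38). An annotation release or strand setting was not given in the sources used here; antisense and overlapping genes are uncertain for that reason. There were 60675 genes in 270 columns, and 240 columns of other samples were left aside. Rounding to whole numbers touched 25.48% of the values above 0 and moved none by more than 0.5. Symbols matched 56558 IDs (93.21%), and coordinates came from GENCODE release 29, which held 57055.

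Groups follow the extract and dose of the labels. The series text says that some extracts were given at a lower, growth-adjusted dose, but all labels here give 500, 100 and 20 µg/mL. Genes were kept by filterByExpr (minimum count 10 over the 8 groups), scaled by TMM, then fitted by robust quasi-likelihood in edgeR 4.0.16 under R 4.3.3. The main fit had extract and dose (13 residual degrees of freedom, common dispersion 0.0044, biological coefficient of variation 6.63%). A fit of 8 groups (10 degrees of freedom) gave each extract's change and the 3-term interaction. In it Yijung has 1 library per dose and takes its spread from the other groups. All tests are two-sided with Benjamini-Hochberg adjustment within each comparison. SE was taken as the size of the log2 fold change over the root of its F statistic. Levels are CPM scaled by TMM factors, except the floor of 3 counts and the sums and cutoffs of the cell type markers, which are without them. The 100 µg/mL levels were scaled over 27 libraries with a pseudocount of 0.05 CPM in log ratios.

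Named are the 15 shared genes per direction with the largest smallest-of-4 change (proper symbol, at least 5 CPM), up to 4 members per list with the smallest p (at least 1 CPM), the 8 genes with the smallest interaction p and those of opposite direction. Genes that this rule selected but that are not reported here were left out and not replaced. TIPARP, AHRR, ME1, TKT, FTH1, MUC5AC, MX1, ISG15, AXIN2, LGR5 and CD4, and PON1, BAAT, ADH1C and TLR6 from outside the lists, do not come from this rule and were chosen after their values were seen. The members, the 25 lists (419 genes, 375 measured, from textbook knowledge) and the tests were chosen with earlier results of these data known. Start regions are RefSeq sequence of GRCh38.p14, found for 21 of the 29 leading genes. Same-number libraries deviated together with correlations of -0.064 to 0.045, so the numbers were not taken as pairs. The steps were tested on simulated data. Alternatives were other size factors, no filter, DESeq2 1.42.0, mitochondrial genes left out, a replicate block, 27 libraries, equal weights and leaving out libraries or extracts.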

Additional observations from a re-analysis of the deposited data

Results flagged for a closer look

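The change between 500 and 20 µg/mL differed between extracts, by the interaction of dose and extract, for 140 of 18409 genes (edgeR quasi-likelihood, adjusted p under 0.05), among them 26 of the genes named here. The size of the difference is given below as the largest minus the smallest of the 4 log2 changes of a gene. No cause was tested.

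Among the genes of foreign-compound metabolism and of NRF2 it was 4.56 for CYP1A1, 1.70 for CYP1B1, 0.66 for TIPARP, 0.76 for ALDH3A1, 1.34 for ALDH1A3 (a retinaldehyde dehydrogenase), 0.83 for AKR1C2, 0.62 for AKR1C1 and 0.77 for SLC7A11, with Banhasasim largest in all of these except AKR1C2, where Sayeok was. Among ATF4 targets it was 1.80 for ASNS, 2.58 for CHAC1, 1.33 for PSAT1, 0.57 for GPT2 and 0.53 for SHMT2, and it was 2.12 for DDIT4. For the mitochondrial transcripts it was 4.43 for MT-RNR1, 3.36 for MT-RNR2 and 1.10 for MT-CO1, and for the thioredoxin-binding TXNIP 1.14. Other shared genes with unequal sizes were ABCG1 (0.77), GPAT3 (0.52), NOX1 (0.70) and EPHB3 (0.66), a receptor of crypt cells. The genes of opposite direction had differences of 0.83 for NR4A1, 0.81 for UCA1, 0.78 for FYN and 0.75 for SLC43A1.

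In all 26 the test rests on 2 Banhasasim libraries per dose, and 3 genes were called over the whole table without that extract. Groups had at most 3 libraries, so no formal outlier screen of single libraries was run. Replicates of a group were compared by a chi-square of their counts per gene. It was 40.44 between the Banhasasim libraries at 500 µg/mL and 4.197 between those at 20 µg/mL. For Bojungikgi at 500 µg/mL it was 33.7 and 40.32 with replicate 2, and 5.143 between replicates 1 and 3.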

How the results depend on the processing

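None of 138 named genes (123 by the rule, 15 outside it) was called with the opposite sign under any alternative run, and the median log2 change of all genes stayed within 0.003 of 0. The replicate block (9 pairs by replicate number) gave 1599 called genes, 699 shared and 101 interaction genes. All of those 699 were among the 735, which was nearly fixed in advance. The order of libraries is the same in both fits, and only 748 genes met it. With the replicate block 13 of the 138 named genes lost their call, among them CHAC1, CYP1B1, ALDH1A3, GPT2 and SHMT2. Equal weight of the 4 extracts gave 1762 called and 692 shared genes. There 7 of the 138 named genes lost their call and 11 gained one, among them TXNIP, MT-RNR1, ASNS, DDIT4, PSAT1 and FTH1. The interaction count was 815 without the filter, 251 with DESeq2 and 231 with 27 libraries. Leaving out 1 library at a time gave 1692 to 3476 called genes, 656 to 1697 higher, 740 to 1367 shared, 263 to 583 shared higher, 452 to 784 shared lower and 71 to 268 interaction genes. All of the highest values came without replicate 2 of Bojungikgi at 500 µg/mL, and the interaction count was 71, 73, 92 and 197 without each of the 4 Banhasasim libraries, 197 being without replicate 3 at 500 µg/mL. The cause was not tested. Without Banhasasim 586 genes were higher and 3 were called in the interaction. Without Bojungikgi 1459 genes were shared (654 higher, 805 lower) by the 3 extracts left. Without Sayeok 756 were called (286 higher, 470 lower), and 89 in the interaction. Chosen after seeing the data, code series 14 alone gave 218 called (84 higher, 134 lower), 217 shared (83 higher, 134 lower) and 51 in the interaction, and code series 15 alone 1041 (344 higher, 697 lower) and 3. Without Banhasasim and replicate 2 of Bojungikgi at 500 µg/mL, 1408 were higher, 1757 shared (807 higher, 950 lower) and 3 in the interaction. Of the 735 shared genes, 498 to 732 were shared again in fits that left out a library or an extract, the lowest without Sayeok. These fits use a part of the libraries that chose the genes, so the order of libraries was nearly fixed in advance. Depth limits genes near the floor of 3 counts, and with 1 Yijung library per dose an order there rests on counting and library noise.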

Other observations

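Below the level of 5 CPM used for naming, further shared genes were found, chosen here after their values were seen. PON1, a lactonase secreted mainly by liver, had 0.378, 0.713 and 0.967 CPM as lowest, median and highest level at 500 µg/mL, against 1.27, 1.6 and 1.82 CPM at 20 µg/mL, and fell by 1.18 ± 0.12 on the log2 scale (SE, adjusted p = 1.66e-06). BAAT, which joins bile acids to glycine and taurine, had 0.761 to 1.34 CPM at 500 µg/mL, against 1.63 to 2.56 CPM at 20 µg/mL. ADH1C, an alcohol dehydrogenase like ADH6, had 1.13 to 2.71 CPM at 500 µg/mL, against 3.28 to 3.78 CPM at 20 µg/mL. TLR6, a receptor for bacterial lipopeptides, went the other way, with 1.52, 1.83 and 2.41 CPM at 500 µg/mL, against 0.865, 1.06 and 1.32 CPM at 20 µg/mL. None of these 4 had overlapping doses.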
